A study of Mus musculus with 7 samples.

Results

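Genes of the Wnt signalling pathway were examined in 7 RNA-seq libraries from mouse brain. The 48 genes were chosen by symbol alone: every gene of the count table named as a Wnt ligand, a Frizzled receptor (Fzd), a Dishevelled protein (Dvl1 to Dvl3), Daam1 or Daam2, Lrp5 or Lrp6, a secreted Frizzled-related protein (Sfrp1 to Sfrp5), a Dickkopf protein (Dkk1 to Dkk4), Axin1, Axin2 or Ctnnb1, out of 55367 genes in all. One of the 48, Fzd10os, is a long noncoding RNA that only carries the name of its neighbour, so 47 encode pathway proteins. The symbol rule read no measured value, but the gene set was proposed with results of this comparison known, so its counts describe these libraries and are not independent evidence.

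The libraries came from C57BL/6J mice labelled P90, 3 under the label noCRS and 4 under the label CRS, and the total RNA was labelled as that of mPFC-LHB projection neurons, which usually reads as medial prefrontal neurons with axons to the lateral habenula. The labels do not spell out CRS. The title of the series speaks of chronic stress leading to depression, and the contrast of CRS with noCRS is the stated design. No transgene, virus or second agent is named for either group, and the sources used here do not say how the neurons were marked. Separate animals are not stated for the libraries either. The p-values therefore cover the spread between these libraries alone, which may be technical.

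Wnt proteins are lipid-modified secreted ligands that bind Frizzled receptors together with Lrp5 or Lrp6, and Dishevelled proteins carry the signal into the cell. In the canonical branch this disables a destruction complex built on Axin, so that beta-catenin (Ctnnb1) accumulates and acts with TCF and LEF factors. In the planar polarity branch Dishevelled works through Daam formins on the actin cytoskeleton. Sfrp and most Dkk proteins are secreted inhibitors. In the brain the pathway is known for patterning, growth of vessels and their barrier, synapse formation and the timing of oligodendrocyte maturation.

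The libraries held 28677703 to 39965667 counts, and 24 (CRS replicate 2) to 35 (CRS replicate 4) of the 48 genes had at least 1 count. On principal component 1 of all tested genes, with 30.4% of the variance, the groups did not overlap and CRS replicate 2 lay apart. The noCRS libraries ran from -104.3 to -87.04 on it and the CRS libraries from -10.98 to 235.9. The libraries also differed by group in markers of cell type, with whole lists summed in CPM (counts scaled to a common library size). Pan-neuronal markers (8 genes) summed to 468 to 540 CPM in noCRS and 3102 to 4361 CPM in CRS, and excitatory neuron markers (10 genes) to 20.2 to 39.9 and 520 to 757 CPM. Slc17a6 and Emx1 were at 0 in every noCRS library, and Emx1 was also at 0 in CRS replicate 1. Markers of the labelled cell type were thus low in noCRS. Snap25 made up much of the pan-neuronal sum in CRS, with means of 158 CPM in noCRS and 2747 CPM in CRS. Inhibitory neuron markers (8 genes) summed to 62.9 to 65.6 and 208 to 893 CPM, also without overlap. Markers of oligodendrocyte precursors (8 genes) summed to 2064 to 2482 CPM in noCRS and 1172 to 1712 CPM in CRS, without overlap. Astrocyte (5793 to 9256 and 3444 to 8308 CPM), myelinating oligodendrocyte (32132 to 37181 and 26561 to 52279 CPM), microglial (89.4 to 133 and 84.4 to 124 CPM) and endothelial sums (53.1 to 214 and 50.5 to 234 CPM) overlapped between the groups, as did those of pericytes (58.3 to 163 and 148 to 551 CPM) and fibroblasts (19.4 to 30.8 and 15.5 to 54.8 CPM), while ependymal and choroid plexus markers summed to 9.92 to 14.6 and 15.2 to 18.1 CPM. The part of this difference in cell type markers in the results below was not tested, and in bulk libraries fewer cells of a type and less RNA per cell cannot be told apart.

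Of the 48 genes, 39 had counts in at least 1 library, 20 had counts in all 7, and 28 passed the filter on low counts and were tested. The 9 genes with no count in any library were the ligands Wnt1, Wnt3a, Wnt8a, Wnt8b, Wnt9b and Wnt16, the receptor Fzd10 and the inhibitors Dkk1 and Dkk4. A further 11 had counts but did not pass the filter: 7 ligands, Lrp5, Sfrp5, Dkk2 and Fzd10os. Detection was thus uneven by role. All 3 Dishevelled genes, both Daam genes, both Axin genes, Ctnnb1 and 9 of 10 Frizzled genes were tested, against 6 of 19 ligands and 1 of 4 Dickkopf genes. At least 1 library was at 0 in 28.6% of the 28, beside 26.7% of all 17833 genes tested.

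**Figure D1:**
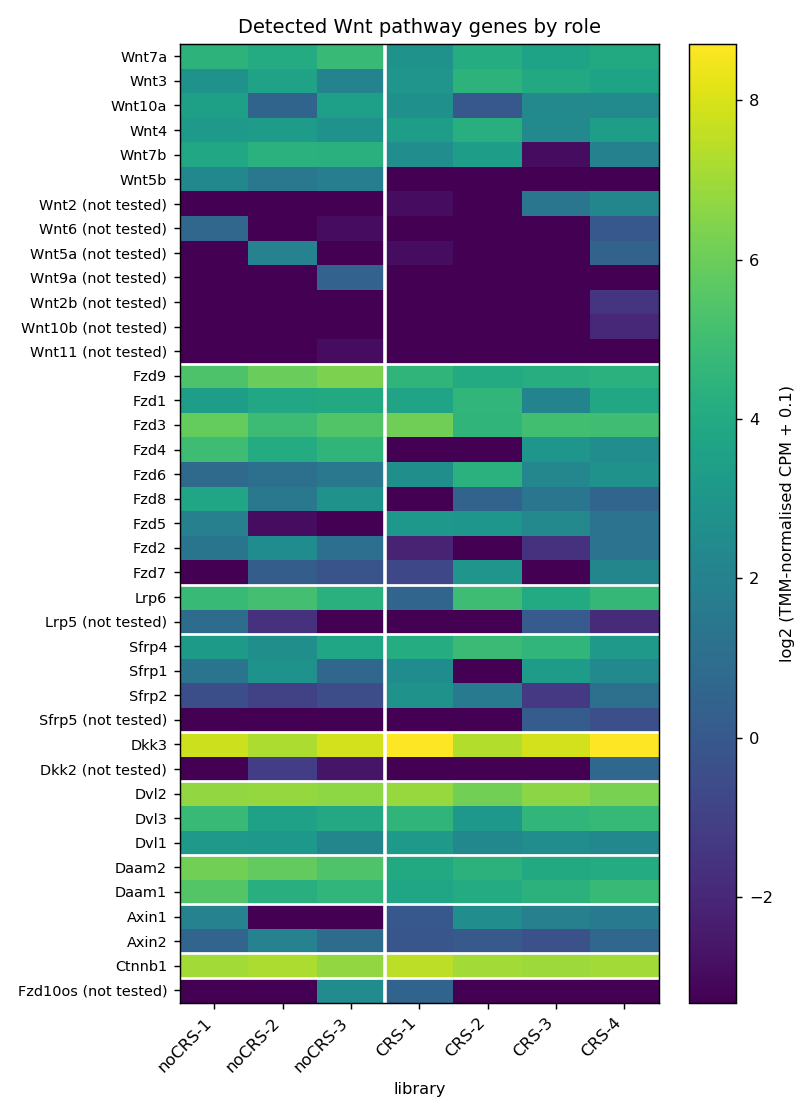
Level of the 39 Wnt pathway genes with counts, as log2 of TMM-normalised CPM plus 0.1 (colour), in each of the 7 libraries (columns, noCRS left of the vertical white line), grouped by role with the highest mean per length on top. Dkk3, Ctnnb1 and Dvl2 are bright in all 7 libraries, and Wnt5b is dark in all 4 CRS libraries.

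In the edgeR test given below, Daam2 and Fzd9 were called lower in CRS, and none of the 28 tested genes was called higher. Fzd9, one of 10 Frizzled receptors, went from 61.3 to 19.5 CPM. Daam2, a formin also known for a role in oligodendrocyte maturation, went from 56.8 to 17.5 CPM. The ligand Wnt5b, counted in each noCRS library, had 0 counts in all 4 CRS libraries and came just short of the threshold. Beta-catenin (Ctnnb1) had a log2 fold change of 0.15 and was not called. With the quasi-likelihood test of edgeR, adjusted by Benjamini-Hochberg over all tested genes (threshold 0.05), 2 of 28 tested genes were called, both lower, where 2.30% of all tested genes were called, 0.230% as lower and 2.07% as higher.

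At an unadjusted p below 0.05 there were 4 of 28 (Daam2, Fzd9, Wnt5b and Fzd6), beside 13.6% of all tested genes. In 7 of the 28 the values of both groups did not overlap, 6 lower (Daam2, Fzd9, Wnt5b, Fzd8, Wnt7b and Fzd4) and 1 higher (Fzd6) in CRS. The shares over all tested genes were 16.9% in either direction, 6.74% lower and 10.1% higher. Fold changes were positive for 13 and negative for 15 of the 28, and their median was -0.20 on the log2 scale, beside -0.02 over all tested genes, whose quartiles were -0.57 and 0.53. DESeq2 called 4 of the 48 (Daam2, Fzd9 and Wnt5b lower, Fzd6 higher), where it called 9.14% of the genes it tested. limma-voom called Daam2, Fzd9 and Wnt5b, all lower, where it called 3.58%.

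**Figure D2:**
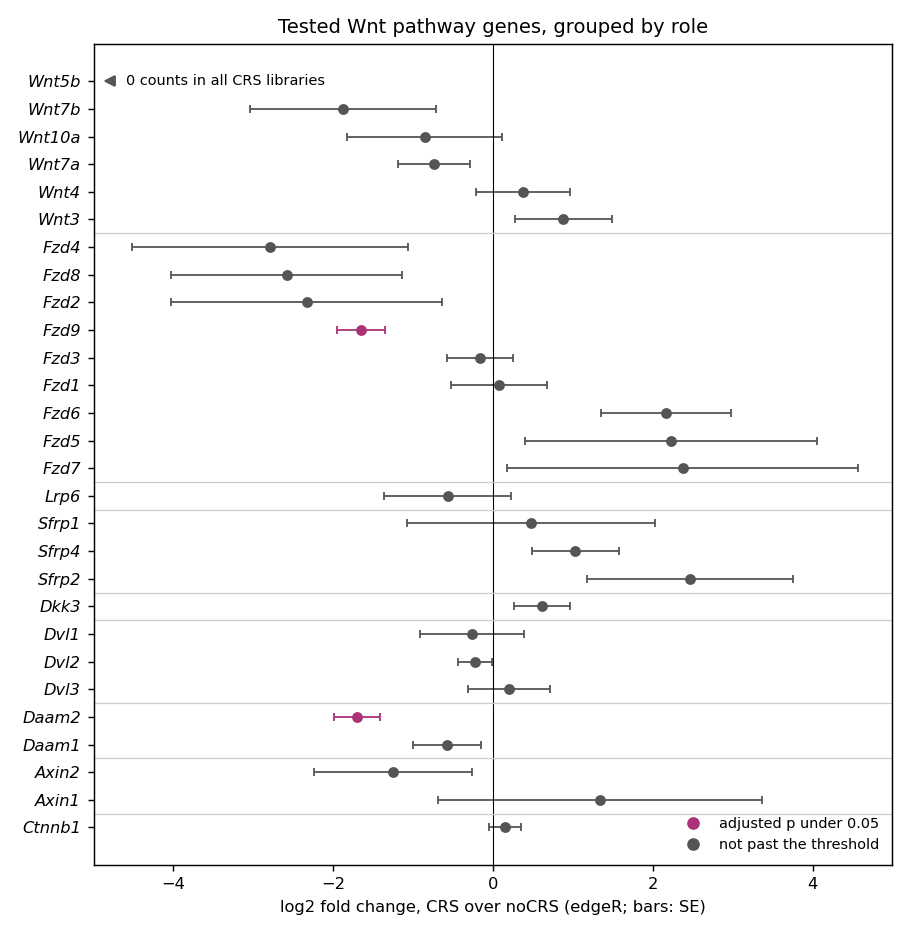
Log2 fold change (horizontal axis, CRS over noCRS, edgeR, bars are SE) of the 28 tested Wnt pathway genes, grouped by role. Daam2 (-1.70) and Fzd9 (-1.65) are past the adjusted threshold, and Wnt5b is drawn as an arrow at the edge, since its fitted fold against 0 counts in CRS depends on the prior count.

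The promoters of Daam2, Fzd9 and Wnt5b are shown because these are the tested genes that edgeR called lower or that had no counts in CRS. Each run is 300 bases from RefSeq on GRCm38.p6, from 250 bases before to 50 after the annotated start, written along the gene's strand: Daam2 at chr17:49564288-49564587, Fzd9 at chr5:135250998-135251297 and Wnt5b at chr6:119544298-119544597, all on the minus strand. Daam2 and Wnt5b have 2 and 3 listed starts, of which the one nearest the start of the gene in the count table is shown. The listed start of Fzd9 lies 183 bases inside the gene model of that table. Capitals mark matches on either strand to a GC box (GGGCGG), a cAMP response element (TGACGTCA) or an AP-1 site (TGANTCA).
Daam2: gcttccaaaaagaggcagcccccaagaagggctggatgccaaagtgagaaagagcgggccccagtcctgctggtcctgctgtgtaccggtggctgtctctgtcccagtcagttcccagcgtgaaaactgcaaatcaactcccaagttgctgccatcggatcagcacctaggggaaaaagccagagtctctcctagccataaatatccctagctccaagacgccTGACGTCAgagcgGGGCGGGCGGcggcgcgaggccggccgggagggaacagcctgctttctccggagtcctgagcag
Fzd9: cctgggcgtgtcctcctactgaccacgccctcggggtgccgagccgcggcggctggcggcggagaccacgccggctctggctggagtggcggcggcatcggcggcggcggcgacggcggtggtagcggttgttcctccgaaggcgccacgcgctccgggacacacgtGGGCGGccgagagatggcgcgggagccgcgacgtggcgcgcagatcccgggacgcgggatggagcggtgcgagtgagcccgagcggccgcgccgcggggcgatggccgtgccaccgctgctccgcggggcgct
Wnt5b: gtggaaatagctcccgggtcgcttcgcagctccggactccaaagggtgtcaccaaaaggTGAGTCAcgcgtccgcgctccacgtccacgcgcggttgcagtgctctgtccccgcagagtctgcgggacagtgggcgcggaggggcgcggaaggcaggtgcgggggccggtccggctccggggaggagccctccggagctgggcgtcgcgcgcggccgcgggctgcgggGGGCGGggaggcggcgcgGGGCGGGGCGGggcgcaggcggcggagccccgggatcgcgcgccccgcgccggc

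All 3 runs held a GC box, as did 26 of the 32 pathway genes with a listed promoter and 35.7% of 32851 promoters of this length. The GC boxes of Daam2 overlap each other, as do the last 2 of the 3 in Wnt5b. GC content was 60.3% in Daam2 and 78% in both Fzd9 and Wnt5b, against a median of 71% over the 32 and 52.7% over all promoters. The cAMP response element in Daam2 starts 27 bases before the annotated start, and its letters occur in 1.79% of promoters and in 2 of the 32 (Daam2 and Dvl1). The AP-1 letters in Wnt5b start 191 bases before the start and occur in 7.81% of promoters and in 2 of the 32 (Wnt5b and Dvl2). None of the 3 runs held the TCF/LEF core CTTTGA, found in 16% of promoters and in 4 of the 32 (Fzd1, Wnt11, Daam1 and Dkk1). The cAMP and AP-1 motifs were searched after the sequences had been read, and a match of letters is a description, not a site.

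Among the ligands, 13 of 19 had counts and 6 were tested, Wnt3, Wnt4, Wnt5b, Wnt7a, Wnt7b and Wnt10a. None was called by edgeR. Wnt5b (chromosome 6, 119432531 to 119544347, 7 exon blocks), a ligand mostly placed in the beta-catenin independent branch, measured 4.80, 2.76 and 3.39 CPM in noCRS, from 199, 86 and 110 counts, and 0 in the 4 CRS libraries. Its groups were fully separate, and the noCRS mean of 3.65 ± 1.04 CPM (SD, n = 3) was at least 163-fold higher than the CRS group floor of 0.0224 CPM, which stands for 3 counts over the 4 libraries. This is a bound on counts only, not on expression. By edgeR the adjusted p was 0.0524, by DESeq2 it was 2.82e-07 and by limma-voom 0.0118.

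Wnt7a and Wnt7b are closely related ligands through which neural cells act on brain vessels. Wnt7a measured 21.6, 16.7 and 27.9 CPM in noCRS and 7.01, 17.6, 12.6 and 15.6 CPM in CRS, so the groups overlapped through CRS replicate 2 (log2 fold change -0.74 ± 0.45 SE, edgeR adjusted p = 0.588). Wnt7b measured 14.2, 20.4 and 20.0 CPM in noCRS and 5.80, 10.1, 0.03 and 3.83 CPM in CRS. All CRS values of Wnt7b were below all noCRS values, and CRS replicate 3 held 1 count, but the spread within CRS was wide (-1.88 ± 1.16 SE, adjusted p = 0.598). The CRS mean of 4.94 CPM was 3.22 CPM without CRS replicate 2. Of the exon bases of Wnt7b 6.61% also lie in an antisense gene, and the library kit does not mark strand.

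The other tested ligands overlapped between the groups. Wnt3 measured 7.24, 12.1 and 4.04 CPM in noCRS and 7.58, 21.7, 15.6 and 12.5 CPM in CRS (log2 fold change 0.88 ± 0.61 SE, edgeR adjusted p = 0.658). Wnt4 had means of 8.57 ± 1.22 CPM (SD, n = 3) and 11.1 ± 5.53 CPM (SD, n = 4). Wnt10a ranged from 1.35 to 11.5 CPM in noCRS and from 0.90 to 6.49 CPM in CRS, with the lowest value of each group in replicate 2. Of the 7 untested ligands, Wnt2, Wnt5a and Wnt6 were counted in 3 libraries each and the others in 1. Wnt2 had 76 and 170 counts in CRS replicates 3 and 4, 1 in CRS replicate 1 and 0 in the remaining 4 libraries. Wnt5a had 122 counts in noCRS replicate 2, 50 in CRS replicate 4 and 1 in CRS replicate 1. Wnt6 had 61 in noCRS replicate 1, 34 in CRS replicate 4 and 1 in noCRS replicate 3. Wnt9a had 41 in noCRS replicate 3 alone. Wnt2b, Wnt10b and Wnt11 had 10, 6 and 1 counts in all.

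Per kilobase of exon, the scale on which levels of different genes can be compared, Wnt7a made up the largest share of summed ligand level in all 3 noCRS libraries, 33.8 ± 5.30% on average (SD, n = 3), and 26.8 ± 4.47% in CRS (SD, n = 4). In CRS the first place went to Wnt3 in 2 libraries, Wnt7a in 1 and Wnt10a in 1. The Wnt3 share was 11.1, 22.2 and 5.94% in noCRS and 22.5, 36.3, 37.9 and 23.8% in CRS. The Wnt7b share was 13.6, 23.5 and 18.5% in noCRS and 10.8, 10.6, 0.05 and 4.58% in CRS. The shares of both thus did not overlap between groups, Wnt3 higher and Wnt7b lower in CRS. The summed ligand level was 20.4 ± 2.31 and 15.2 ± 3.77 CPM per kb, with overlap that was lost when libraries were scaled by total counts. These shares and sums are descriptions and were not tested.

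Of the 9 tested Frizzled receptors, the membrane proteins that bind Wnt ligands, edgeR called 1 lower and none higher. Fzd9 (chromosome 5, 135248938 to 135251230, a single-exon gene), whose human counterpart lies in the region deleted in Williams syndrome, measured 40.9, 62.7 and 80.3 CPM in noCRS and 23.2, 16.5, 18.1 and 20.2 CPM in CRS. Every CRS library lay below every noCRS library. The mean of 61.3 ± 19.7 CPM (SD, n = 3) was 3.14-fold that of CRS, 19.5 ± 2.91 CPM (SD, n = 4), with a log2 fold change of -1.65 ± 0.30 SE (95% interval -2.33 to -0.97, edgeR adjusted p = 0.0303). Leaving out noCRS replicate 1 kept the call, and leaving out any of the other 6 libraries ended it (edgeR adjusted p up to 0.144), though the log2 fold change stayed between -1.86 and -1.41.

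Fzd6, a receptor known from tissue polarity, measured 1.66, 2.09 and 2.68 CPM in noCRS and 6.28, 20.6, 4.69 and 7.11 CPM in CRS. All CRS values were above all noCRS values and CRS replicate 2 was by far the highest (log2 fold change 2.17 ± 0.81 SE, edgeR adjusted p = 0.263, DESeq2 adjusted p = 0.0207). The CRS mean was 9.67 CPM, and 6.03 CPM without that library. Fzd4, the receptor of Norrin in vessels, measured 31.5, 16.9 and 23.0 CPM in noCRS and 0, 0, 7.96 and 5.78 CPM in CRS. CRS replicates 1 and 2 held no count of it, and the adjusted p was 0.598. The CRS mean of Fzd4, 3.44 CPM, was 1.93 CPM without CRS replicate 3. Fzd8 measured 13.8, 2.76 and 7.24 CPM in noCRS and 0, 1.34, 2.51 and 1.43 CPM in CRS (log2 fold change -2.58 ± 1.45 SE, adjusted p = 0.533, noCRS mean 7.93 CPM and 5.0 CPM without noCRS replicate 1). The groups of Fzd4 and Fzd8 did not overlap, yet their intervals crossed 0 (-6.75 to 1.17 and -5.89 to 0.73 on the log2 scale).

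The remaining receptors overlapped between the groups. Fzd3, which guides axon tracts, measured 59.0, 30.4 and 43.5 CPM in noCRS and 69.3, 23.3, 33.3 and 32.2 CPM in CRS, with a log2 fold change of -0.17 and an interval from -1.11 to 0.78. Fzd1 had means of 13.5 ± 2.65 CPM (SD, n = 3) and 14.1 ± 8.18 CPM (SD, n = 4), with a log2 fold change of 0.07 and an interval from -1.31 to 1.45. Neither interval leaves out a change of 1 log2 unit in at least 1 direction, so similar levels were not shown. Fzd2, Fzd5 and Fzd7 were low and uneven. Fzd2 measured 2.44, 5.72 and 2.0 CPM in noCRS and 0.12, 0, 0.23 and 2.32 CPM in CRS. Fzd5 measured 3.71, 0.03 and 0 CPM against 8.39, 7.83, 4.95 and 2.29 CPM, with nearly all noCRS counts in replicate 1, and 17.8% of the exon bases of Fzd5 also lie in an antisense gene. Fzd7 reached 7.74 and 4.46 CPM in CRS replicates 2 and 4 and was at or below 1.06 CPM elsewhere.

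**Figure D3:**
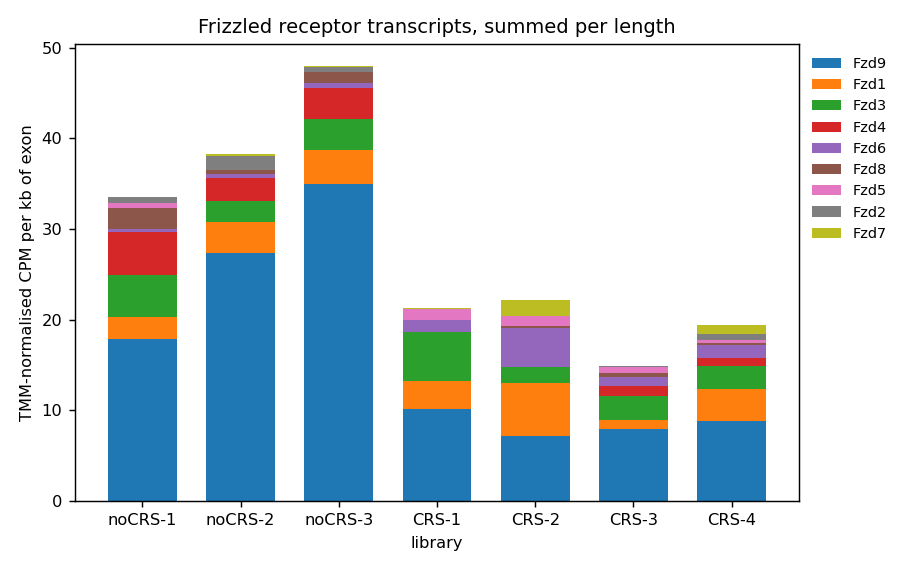
Stacked level of the 9 detected Frizzled receptors in TMM-normalised CPM per kilobase of exon (vertical axis) in each library (horizontal axis). The sums run from 33.5 to 48.0 in noCRS and from 14.9 to 22.1 in CRS, and Fzd9 is the largest piece in all 7.

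Summed per kilobase of exon, the Frizzled receptors came to 33.5, 38.3 and 48.0 CPM per kb in noCRS and to 21.3, 22.1, 14.9 and 19.4 CPM per kb in CRS. The groups did not overlap, also with libraries scaled by total counts. Fzd9 was the most abundant receptor per length in all 7 libraries, with 65.8 ± 10.9% of the sum in noCRS (SD, n = 3) and 44.6 ± 8.73% in CRS (SD, n = 4). Without Fzd9 the sums were 15.7, 11 and 13 in noCRS and 11.2, 14.9, 6.97 and 10.6 CPM per kb in CRS, which overlapped. Fzd6 took 1.03, 1.13 and 1.16% of the sum in noCRS and 6.11, 19.3, 6.54 and 7.61% in CRS, and Fzd1 7.47, 8.90 and 7.74% and 14.7, 26.1, 6.82 and 18.3%. The separation of the summed level thus needed Fzd9, and the sums were not tested.

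Of the co-receptors, Lrp6, which binds Wnt ligands beside Frizzled, measured 28.4, 34.5 and 19.9 CPM in noCRS and 1.42, 30.8, 16.2 and 26.1 CPM in CRS (log2 fold change -0.57 ± 0.80 SE, edgeR adjusted p = 0.877). Both groups overlapped, and CRS replicate 1 was far below the others. Lrp5, its relative, had 76 counts in noCRS replicate 1, 30 in CRS replicate 3, 7 each in noCRS replicate 2 and CRS replicate 4 and 0 elsewhere.

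No secreted inhibitor passed the test. Sfrp proteins bind Wnt ligands outside the cell. Sfrp4 measured 9.29, 6.33 and 13.6 CPM in noCRS and 17.3, 29.0, 24.2 and 8.86 CPM in CRS, so that CRS replicate 4 alone reached into the noCRS range (log2 fold change 1.03 ± 0.55 SE, edgeR adjusted p = 0.497). Sfrp2 measured 0.65, 0.42 and 0.62 CPM in noCRS and 7.25, 2.87, 0.30 and 2.06 CPM in CRS, where replicate 3 lay below noCRS (2.47 ± 1.29 SE, adjusted p = 0.486). Its CRS mean was 3.12 CPM, and 1.74 CPM without CRS replicate 1, and 16.1% of its exon bases also lie in an antisense gene. Sfrp1 ran from 1.45 to 7.22 CPM in noCRS and from 0 to 9.74 CPM in CRS. Sfrp5 had 31 and 26 counts in CRS replicates 3 and 4 and none elsewhere. Summed per kilobase, the 4 Sfrp genes came to 3.06, 3.36 and 3.87 CPM per kb in noCRS and 8.81, 8.28, 8.70 and 4.59 CPM per kb in CRS. The sums did not overlap, although no single member did likewise.

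Dkk3, a divergent Dickkopf protein found in cortical neurons, was the most abundant of the 48 per kilobase, at 60.1 ± 13.96 CPM per kb in noCRS (SD, n = 3). It measured 219, 149 and 238 CPM in noCRS and 418, 162, 236 and 417 CPM in CRS (log2 fold change 0.61 ± 0.35 SE, 95% interval -0.19 to 1.41, edgeR adjusted p = 0.55). CRS replicates 1 and 4 were high, while replicates 2 and 3 lay within the noCRS range. The classical Lrp6 antagonists Dkk1, Dkk2 and Dkk4 were low or at 0, with 71 counts of Dkk2 over all libraries, 58 of them in CRS replicate 4, and 0 of Dkk1 and Dkk4.

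**Figure D4:**
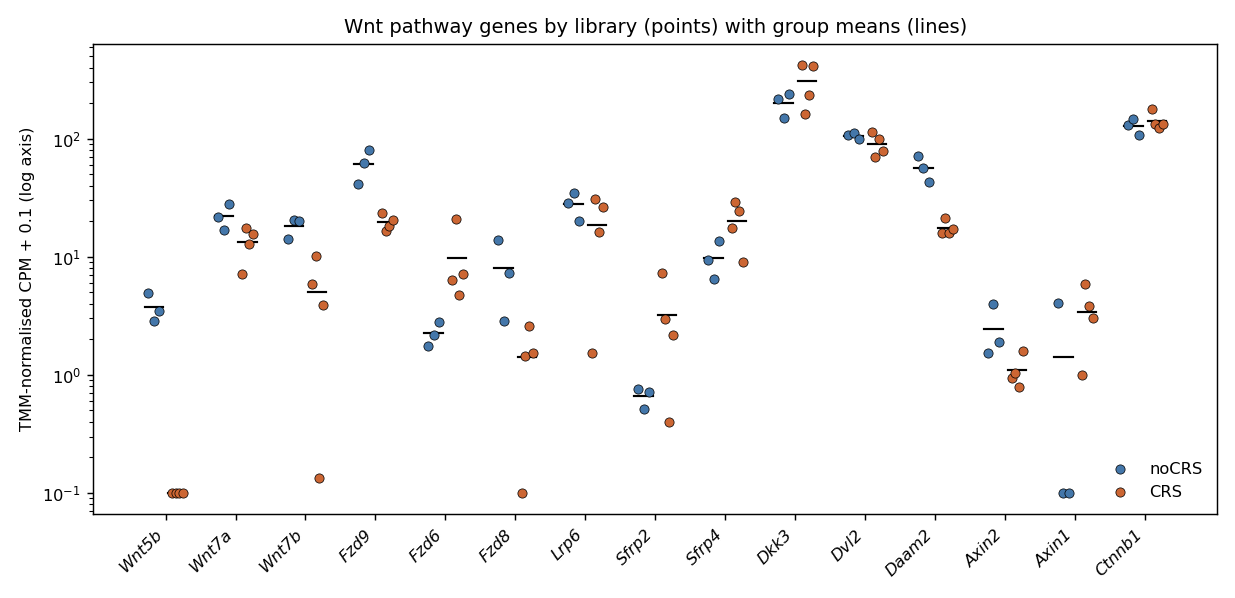
TMM-normalised CPM plus 0.1 (log axis) of 15 tested Wnt pathway genes in each library (points, noCRS in blue and CRS in orange) with group means (lines). The CRS points of Daam2 and Fzd9 lie below all noCRS points, and those of Wnt5b, with 0 counts, lie at the added 0.1.

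Inside the cell, none of the 3 Dishevelled genes passed the test. Dvl2 was the most abundant of the 3 per length in every library, with 80.1 ± 5.32% of their sum in noCRS (SD, n = 3) and 76.8 ± 4.89% in CRS (SD, n = 4). It measured 108, 111 and 100 CPM in noCRS and 115, 70.3, 99.5 and 78.9 CPM in CRS (log2 fold change -0.22 ± 0.21 SE, 95% interval -0.70 to 0.25, edgeR adjusted p = 0.784), and 19.7% of its exon length is shared with other genes. Dvl1 had means of 7.31 ± 2.5 CPM (SD, n = 3) and 6.10 ± 1.99 CPM (SD, n = 4), and Dvl3 of 17.9 ± 8.13 and 20.6 ± 8.20 CPM, both with overlap.

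The Daam formins bind Dishevelled and act on actin filaments. Daam2 (chromosome 17, 49456022 to 49564343, 24 exon blocks) measured 71.5, 56.5 and 42.5 CPM in noCRS and 15.9, 21.2, 15.8 and 17 CPM in CRS. The lowest noCRS library was about 2-fold above the highest CRS library. The means were 56.8 ± 14.5 CPM (SD, n = 3) and 17.5 ± 2.52 CPM (SD, n = 4), a 3.25-fold difference with a log2 fold change of -1.70 ± 0.28 SE (95% interval -2.35 to -1.05, edgeR adjusted p = 0.0227). The call held without noCRS replicate 3 or CRS replicate 2 and was lost without any of the other 5 libraries (edgeR adjusted p up to 0.1035), with log2 fold changes from -1.87 to -1.49. Neither Daam2 nor Fzd9 shares exon sequence with another gene of the table.

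Daam1, its close relative, measured 44.1, 19.4 and 24.0 CPM in noCRS and 13.2, 16.5, 21 and 27.6 CPM in CRS (log2 fold change -0.58 ± 0.42 SE, edgeR adjusted p = 0.691). Its groups overlapped. Per kilobase, Daam2 made up 57.3, 70.7 and 59.5% of both formins in noCRS and 49.99, 51.5, 38.4 and 33.8% in CRS. The share did not overlap between groups and was not tested. Daam1 was thus the larger of both in 3 of 4 CRS libraries and in none of the noCRS libraries. In CRS replicate 1 both were nearly equal, with Daam1 at 50.01%.

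**Figure D5:**
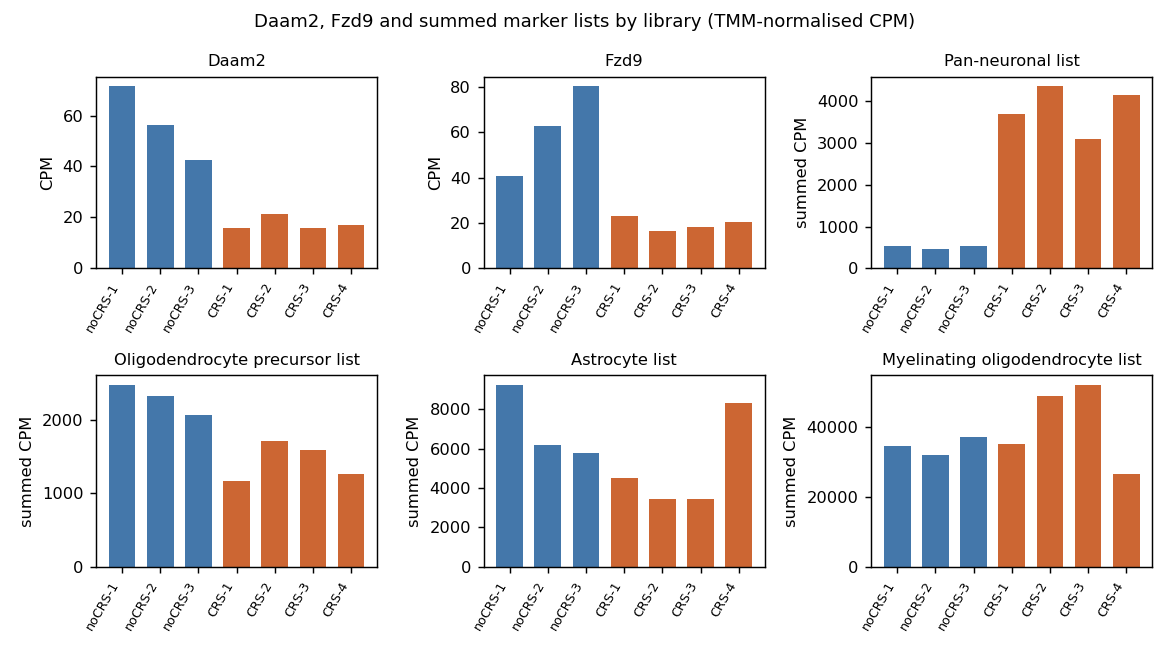
TMM-normalised CPM (vertical axes, from 0) of Daam2, Fzd9 and the summed lists of pan-neuronal, oligodendrocyte precursor, astrocyte and myelinating oligodendrocyte markers (8 genes each) in each library. Daam2, Fzd9 and the precursor sum are lower and the pan-neuronal sum is higher in every CRS library than in every noCRS library.

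Beside the lower Daam2 and Fzd9, 4 of 8 oligodendrocyte precursor markers were called lower (C1ql1, Cspg4, Gpr17 and Neu4). Olig2 was not called, nor were Pdgfra, Vcan and Lhfpl3, which overlapped between the groups. Over all tested genes, 0.230% were called lower and 2.07% higher. The precursor sum was lower in all 4 CRS libraries. Of the pan-neuronal markers, 4 of 8 were called higher (Snap25, Syt1, Stmn2 and Nefl). Rbfox3, Elavl4, Tubb3 and Map2 were not called. Tubb3 and Map2 overlapped between the groups, and the log2 fold change of Map2 was -0.08. Of the excitatory neuron markers, 4 of 10 were called higher (Slc17a6, Neurod6, Nrgn and Sv2b), and of the inhibitory neuron markers 2 of 8 (Gad1 and Sst). None of the astrocyte, myelinating oligodendrocyte, microglial or endothelial markers was called. The pericyte, fibroblast and ependymal lists had no call either. The part of these markers in the difference of Daam2, Fzd9 and Wnt5b was not tested.

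The centre of the canonical branch showed no call. Ctnnb1, which encodes beta-catenin (chromosome 9, 120929216 to 120960507), measured 130, 148 and 108 CPM in noCRS and 179, 133, 124 and 133 CPM in CRS, with overlap (log2 fold change 0.15 ± 0.20 SE, 95% interval -0.30 to 0.60, edgeR adjusted p = 0.867). The sign was negative (-0.005) with libraries scaled by total counts, and 15.1% of its exon length is shared with other genes. Axin2, a feedback inhibitor and classical target of the branch, measured 1.42, 3.89 and 1.79 CPM in noCRS and 0.85, 0.94, 0.69 and 1.49 CPM in CRS (-1.25 ± 0.99 SE, adjusted p = 0.725). Only CRS replicate 4 reached into the noCRS range, by a margin of 0.062 CPM, and at 21 to 121 counts a library the interval ran from -3.51 to 1.01. Axin1, the scaffold of the destruction complex, measured 3.96, 0 and 0 CPM in noCRS and 0.91, 5.77, 3.73 and 2.94 CPM in CRS (log2 fold change 1.34 ± 2.03 SE, 95% interval -3.31 to 5.98, edgeR adjusted p = 0.888). Without noCRS replicate 1 the noCRS mean of Axin1 was 0.

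Fzd10os, the long noncoding RNA beside Fzd10 on the other strand (chromosome 5, 128579106 to 128600693), had 179 counts in noCRS replicate 3, 45 in CRS replicate 1 and 0 elsewhere. It shares no exon sequence with Fzd10.

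The rest of the pathway was read from 10 lists, chosen with earlier results of these data known. These lists held 104 genes outside the 48, of which 94 were tested. By edgeR 3 were called higher and none lower, and the median on the log2 scale was 0.13. Beside the 2.07% of all tested genes called higher this share is close to the background. The 3 were Ppp3ca and Ppp3r1, subunits of the calcium-dependent phosphatase calcineurin, and Mapk10, the JNK kinase typical of neurons. Ppp3ca rose from 133 ± 27.3 CPM (SD, n = 3) to 420 ± 71.1 CPM (SD, n = 4), with an edgeR adjusted p of 0.00753. Ppp3r1 rose from 149 ± 33.6 to 615 ± 161 CPM (adjusted p = 0.00928) and Mapk10 from 75.1 ± 15.1 to 207 ± 13.96 CPM (adjusted p = 0.00789). In all 3 every CRS library was above every noCRS library. These 3 genes are abundant in neurons, and pan-neuronal marker sums differed in the same direction, as given above, a link that was not tested.

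By list, the calcium branch effectors had 2 of 12 tested genes called higher and a log2 median of 1.04. In the destruction complex list (16 tested, median 0.13) the smallest p belonged to Ppp2ca, the catalytic subunit of phosphatase PP2A, at 840.5 ± 32.9 (SD, n = 3) and 1356 ± 193 CPM (SD, n = 4, edgeR adjusted p = 0.0619), and to Tnks, the tankyrase that marks Axin for degradation, at 19.8 ± 4.96 and 47.4 ± 27.1 CPM (adjusted p = 0.228). Neither passed by edgeR, while DESeq2 and limma-voom called Ppp2ca higher. By edgeR, 8 of the 10 lists had no call.

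Among nuclear co-factors of beta-catenin (16 tested, median 0.01) the Groucho repressor Tle2 measured 35.4 ± 8.10 and 14.7 ± 8.44 CPM (edgeR adjusted p = 0.313) and Tle4 61.0 ± 19.97 and 84.0 ± 16.2 CPM (adjusted p = 0.576). Common targets of beta-catenin and TCF (13 tested, median -0.28) had 5 positive and 8 negative fold changes. Myc, which many other signals also induce, measured 23.2 ± 12.9 and 93.3 ± 60.2 CPM (adjusted p = 0.137, called higher by DESeq2), and Nkd1, a feedback inhibitor that binds Dishevelled, 95 ± 29.5 and 50.6 ± 22.4 CPM (adjusted p = 0.322). Cxxc5, another inhibitor of Dishevelled, measured 60.8 ± 10.6 and 41.6 ± 8.79 CPM (adjusted p = 0.412) in a list of 6 tested genes with a median of -0.60.

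Alternative receptors and planar polarity genes (13 tested, 4 with positive and 9 with negative fold changes, median -0.58) included Celsr3, a polarity cadherin with 0 counts in noCRS and 0.54, 0, 1.39 and 0.55 CPM in CRS (edgeR adjusted p = 0.217), and Prickle2, at 26.3 ± 11.3 and 41.5 ± 0.83 CPM (adjusted p = 0.439). Among other inhibitors (5 tested, median -0.27), Dkkl1, related to Dkk3, measured 0, 0.71 and 0 CPM in noCRS and 30.5, 8.42, 11.3 and 10.5 CPM in CRS. Its groups were far apart, but the edgeR test did not pass (adjusted p = 0.166), though DESeq2 and edgeR without noCRS replicate 2 called it higher. Kremen1, a Dkk receptor, measured 3.49 ± 4.27 and 1.29 ± 2.34 CPM (adjusted p = 0.894). In the R-spondin and Lgr list (8 tested, median 0.79) the ligase Rnf43 measured 27.0 ± 16.1 and 11.4 ± 8.18 CPM (adjusted p = 0.577) and Rspo3 0.97 ± 1.17 and 4.35 ± 3.97 CPM (adjusted p = 0.803). In the release and carrier list (4 tested, median 0.20) Porcn, which lipidates Wnt ligands, measured 32.6 ± 9.88 and 26.8 ± 14.9 CPM (adjusted p = 0.895) and Tinagl1 2.07 ± 1.84 and 5.53 ± 4.76 CPM (adjusted p = 0.879).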

How the data were processed

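Whole-number counts per gene were deposited by the authors for 7 libraries of mouse brain, 3 noCRS and 4 CRS. The RNA came from a micro-scale column kit and the libraries from a transposase kit, which leaves strand unmarked, per the labels' protocols. The submitters' processing notes name FastQC, HISAT, HISAT2, featureCounts, DESeq2 and the build GRCm38, without versions. The column names of the count table resemble those of another aligner's output, so the aligner was not settled here. Exon length was the deposited length column (bases).

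From the counts, CPM with TMM scaling and the edgeR 4.0.16 quasi-likelihood test (filterByExpr, 17833 genes tested, Benjamini-Hochberg adjustment over all of them, threshold 0.05) were computed in R 4.3.3. SE was the log2 fold change over the square root of F. limma 3.58.1 (voom with sample quality weights), DESeq2 1.42.0, other scalings and filters, a replicate block and each library left out were alternatives. Floors are 3 counts and cover counting error only. Gene positions came from the count table and matched GENCODE M21 for 47 of 48 genes, and promoters from RefSeq for 32. Every library's value and, where tested, the log2 fold change with SE and adjusted p are given for genes past the threshold, filled to 10 by smallest p, for the most abundant gene per role and for Ctnnb1 and Axin2, and group levels with adjusted p from each pathway list for genes called and the 2 with the smallest p. Wnt5b, at 0 in CRS, has a bound in place of a fitted fold change. Members and gene lists were chosen with earlier results of these data known. No pair of libraries agreed within counting noise. The values of 1 pathway list are not reported here.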

Additional observations from a re-analysis of the deposited data

Results flagged for a closer look

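In 3 of the 27 tested genes with any CRS count, the gap between 1 CRS library and its nearest neighbour, as a share of the group's range, was above Dixon's 95% critical value for groups of 4. Dvl3, at 0.828, lay just under it. For normally distributed values chance passes it in about 1 of 20 groups, and CPM near 0, as in Fzd2, need not be so distributed. For Ctnnb1, CRS replicate 1 measured 179.5 CPM where the other CRS libraries measured 124 to 133 CPM, a gap of 0.83 of the range. For Fzd2, CRS replicate 4 measured 2.32 CPM where the others measured 0 to 0.23 CPM (0.90 of the range), and the CRS mean was 0.67 CPM with it and 0.12 CPM without it. For Fzd6, CRS replicate 2 measured 20.6 CPM where the others measured 4.69 to 7.11 CPM (0.847 of the range). CRS replicate 2 also stood apart from all libraries over the tested genes, and its part in the Fzd6 value was not tested.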

How the results depend on the processing

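The count of 2 pathway genes called by edgeR became 4 with DESeq2 and 3 with limma-voom. It was 2 with DESeq2's size factors, total counts alone, no filter or a filter of 10 counts, and 0 to 1 with 1 library left out. Of the 104 other pathway genes 3 were called (2.30% of all tested genes), 11 with DESeq2 (9.14%), 4 with limma-voom (3.58%) and 3 to 4 with 1 library left out (0.746 to 2.02%). The groups of 7 genes did not overlap (16.9% of all tested genes), of 9 with total counts alone (17.3%), and of 8 to 11 with 1 library left out (21 to 27.5%), with 11 without CRS replicate 4 (21.5%), alternatives chosen after seeing the data. The median log2 fold change of -0.20 ran from -0.34 with total counts, where the median of all genes was -0.17, to -0.06 without noCRS replicate 1. Of 15 named and tested genes, only Ctnnb1 changed sign in any of 14 alternatives (-0.005 with total counts). With a replicate block in edgeR, which called 12 of all tested genes, 0 pathway genes and 0 of the other pathway genes were called, with adjusted p of 0.233 for Daam2 and 0.2745 for Fzd9. Correlations of same-numbered libraries were 0.0208, 0.0077 and 0.0047, and those of the other pairs ran from -0.0149 to 0.008. Correlations this small cannot decide whether same-numbered libraries were paired. The cause of these changes was not tested. With no filter, edgeR also tested the 11 genes that the filter had left out and called none of them.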
